A study of Mus musculus with 3 samples.

Results

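The dorsal ectoderm of the mouse forelimb bud was followed here as 491 cells in which Wnt7a was counted. They were taken from the ectoderm cluster that the authors deposited (3288 cells of 43950 in all) by a rule on 3 genes: at least 1 unique molecular identifier (UMI, a tag that counts each captured molecule once) of Wnt7a, none of En1 and under 5 of Fgf8. The cells came from forelimb buds of wild-type embryos, dissociated with trypsin and profiled by droplet sequencing of transcript 3′ ends (10x Genomics, version 2 chemistry), with 1 reaction per group. B6_E10.5 is the strain c57bl6.J at embryonic stage E10.5 (113 of the cells), 129_E9.5 is the strain 129S6.sv at E9.5 (201 cells) and B6_E9.5 is c57bl6.J at E9.5 (177 cells). All embryos were wild type and the labels do not say how many were pooled in a reaction.

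The ectoderm of the limb bud is a thin epithelium with a dorsal face, a ventral face and, between them, the apical ectodermal ridge, whose FGF signals keep the bud growing. Dorsal ectoderm secretes WNT7A, which induces the transcription factor LMX1B in the mesenchyme beneath and so sets dorsal identity. In ventral ectoderm, BMP signalling induces En1, a homeobox gene that represses Wnt7a there. Wnt7a, En1 and Fgf8 chose the cells, so their values below are descriptions and carry no test.

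The whole libraries held between 93029510 UMIs (129_E9.5) and 124388358 UMIs (B6_E9.5). The dorsal cells held 890605 UMIs in B6_E10.5, 1329433 in 129_E9.5 and 2220835 in B6_E9.5, with medians of 7882, 6449 and 11888 UMIs per cell. Levels are given as CPM, the UMIs of a gene scaled to a common total per class. Barcodes of 1728 cells, 124 of them ectodermal, also occurred in another library, and of these cells 5, 9 and 9 were dorsal cells of B6_E10.5, 129_E9.5 and B6_E9.5. Summed Y-linked genes stood at 111, 30.8 and 53.6 CPM in the dorsal cells of the same libraries, and their part in the results was not tested. Erythroid markers in dorsal cells summed to 303, 455 and 1093 CPM, and all 8 erythroid markers had a UMI only in B6_E9.5. Macrophage markers summed to 3.37 CPM in B6_E10.5 and were at 0 in the other two libraries.

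Surface ectoderm markers matched the label. All 15 surface ectoderm markers were counted in each library, and they summed to 2605, 2913 and 2577 CPM in dorsal cells of B6_E10.5, 129_E9.5 and B6_E9.5, against 45.4, 76.9 and 63.7 CPM in limb mesenchyme. Of the 4 dorsal markers, Wnt7a is fixed by the rule, and the other 3 (Sema3a, Ngfr and Ppp2r2c) summed to 152, 168 and 229 CPM in dorsal cells, against 39.6, 19 and 16.7 CPM in ventral cells (En1 and no Wnt7a), 97.5, 83.3 and 76.2 CPM in unmarked cells (neither gene) and 17.8, 45.5 and 44.4 CPM in ridge cells (5 or more Fgf8 UMIs). Markers of limb mesenchyme summed to 542, 484 and 774 CPM in dorsal cells, against 2310, 2263 and 2254 CPM in mesenchyme itself. Sema3a is not confined to ectoderm, with 35.3, 46.3 and 123 CPM in mesenchyme. A neural crest and Schwann precursor list that contains Ngfr and Tfap2b summed to 320.0, 156 and 158 CPM in dorsal cells, and its defining member Foxd3 was at 0 in every library.

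Dorsal cells were 11.0% of the ectoderm in B6_E10.5 (exact Clopper-Pearson 95% interval 9.16 to 13.1), 16.0% in 129_E9.5 (14.1 to 18.2) and 17.5% in B6_E9.5 (15.2 to 20.0). These shares depend on how deeply a cell was sequenced, because the rule reads single UMIs. With each cell thinned to 2000 UMIs they were 4.17%, 8.90% and 9.24%, again lowest in B6_E10.5. Intervals of shares, levels and ratios describe counting error alone.

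Many members sat at the threshold of the rule, fewest of them in B6_E9.5. Wnt7a was at exactly 1 UMI in 73 of 113 cells of B6_E10.5, in 106 of 201 of 129_E9.5 and in 62 of 177 of B6_E9.5, and at 3 or more in 17, 45 and 73 cells. The highest count in a cell was 5, 8 and 13 UMIs. Limb mesenchyme, which should lack Wnt7a, had a UMI in 0.0522%, 0.0542% and 0.31% of its cells, at median depths of 5422, 7463 and 8067 UMIs. Summed over the members, Wnt7a stood at 207 CPM in B6_E10.5 (exact Poisson 95% interval 178 to 239), 287 CPM in 129_E9.5 (259 to 317) and 218 CPM in B6_E9.5 (199 to 238), and by the rule at 0 in ventral cells.

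Fgf8 was counted in some members. It was at 1 to 4 UMIs in 5 of 113, 25 of 201 and 47 of 177 cells of B6_E10.5, 129_E9.5 and B6_E9.5. Just inside the limit, at 4 UMIs, were 0, 9 and 7 cells, and just outside, at 5 UMIs, 0, 3 and 3 Wnt7a-positive cells without En1. In 129_E9.5 members with Fgf8 had Msx2 at 149 CPM and Ngfr at 31.0 CPM, against 25.7 and 93.3 CPM in members without Fgf8. In B6_E9.5 the members with Fgf8 had Msx2 at 200.0 CPM and Ngfr at 51.4 CPM, against 77.2 and 130 CPM in those without. Wnt7a-positive cells outside the rule, with 5 or more Fgf8 UMIs, had Msx2 at 303, 154 and 372 CPM in B6_E10.5, 129_E9.5 and B6_E9.5, so the members with Fgf8 lay between the members without it and these cells in both E9.5 libraries.

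At least 1 of the other 3 dorsal markers was counted beside Wnt7a in most members. At least 1 of Sema3a, Ngfr and Ppp2r2c was found in 66.4% of dorsal cells of B6_E10.5, 59.2% of 129_E9.5 and 81.9% of B6_E9.5, against 25.6%, 9.74% and 17.0% of ventral cells, 29.8%, 23.4% and 25.4% of unmarked cells and 9.52%, 19.02% and 34.3% of ridge cells. For these shares, cells of at least 2000 UMIs kept the class given at full depth and were then thinned to 2000 UMIs. The shares were then 23.2%, 26.2% and 30.6% of dorsal cells, against 8.26%, 3.92% and 5.68% of ventral cells, 17.8%, 14.0% and 13.8% of unmarked cells and 5.10%, 6.81% and 6.34% of ridge cells. Of the 3 genes, at least a pair was found in 7.08%, 16.9% and 52.0% of dorsal cells as sequenced, and in 0.893%, 4.10% and 4.12% after thinning. All 3 were found in 0 of 113, 6 of 201 and 30 of 177 dorsal cells as sequenced.

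**Figure D1:**
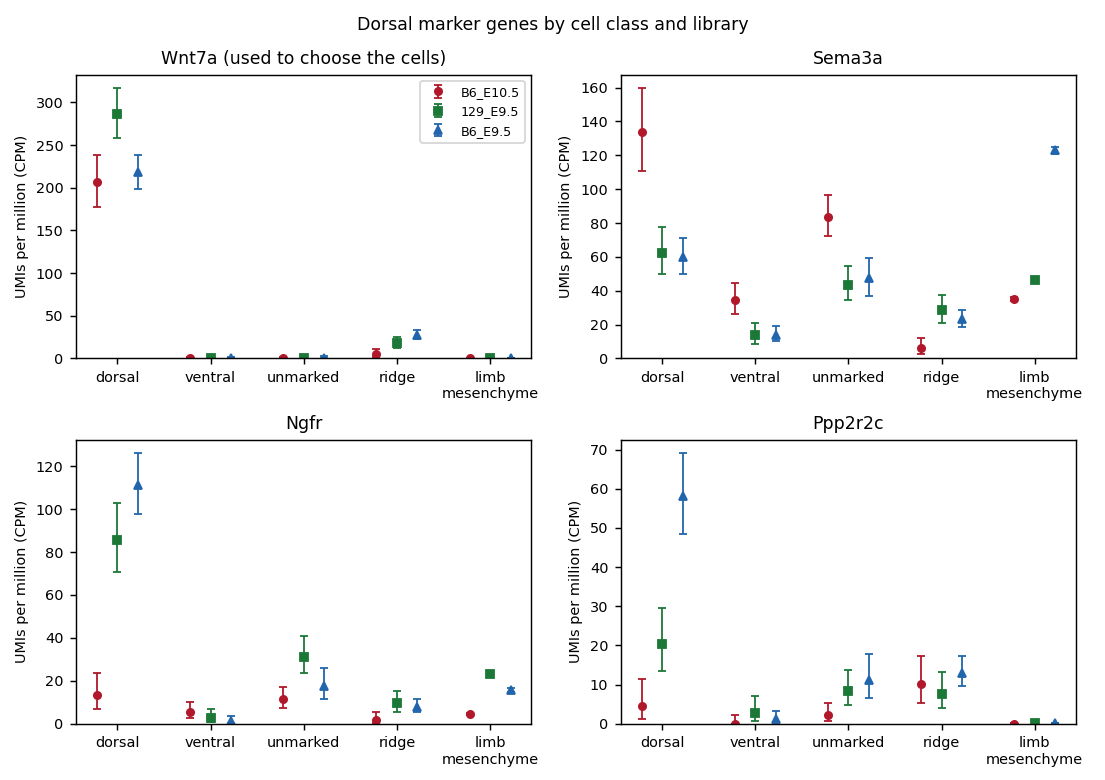
Levels of the 4 dorsal markers (vertical axes, CPM) in dorsal, ventral, unmarked and ridge ectoderm and in limb mesenchyme, with 1 point per library and exact Poisson 95% intervals. Wnt7a chose the dorsal cells, Sema3a was higher in dorsal than in ventral cells of each library, and dorsal Ngfr and Ppp2r2c were lowest in B6_E10.5.

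Sequences of 3 promoters are shown, for Wnt7a, which defines the cells, and for the connexin genes Gjb2 and Gjb6, neighbours on chromosome 14 that rank among the largest stage ratios described below. Each runs from 250 bases before to 50 bases after the gene's start on the minus strand and is taken from RefSeq (build GRCm38.p6). Capitals mark matches to CTTTG, the core of the LEF/TCF motif through which WNT signals reach DNA, and to GCCNNNGGC, the motif of TFAP2 factors, searched on both strands.
Wnt7a chr6:91411304-91411603: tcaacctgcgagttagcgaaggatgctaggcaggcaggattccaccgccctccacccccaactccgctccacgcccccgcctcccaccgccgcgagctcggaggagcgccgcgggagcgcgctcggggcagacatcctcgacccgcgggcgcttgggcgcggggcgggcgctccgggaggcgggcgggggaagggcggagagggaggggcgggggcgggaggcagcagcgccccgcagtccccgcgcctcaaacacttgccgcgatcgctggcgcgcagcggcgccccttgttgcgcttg
Gjb2 chr14:57104653-57104952: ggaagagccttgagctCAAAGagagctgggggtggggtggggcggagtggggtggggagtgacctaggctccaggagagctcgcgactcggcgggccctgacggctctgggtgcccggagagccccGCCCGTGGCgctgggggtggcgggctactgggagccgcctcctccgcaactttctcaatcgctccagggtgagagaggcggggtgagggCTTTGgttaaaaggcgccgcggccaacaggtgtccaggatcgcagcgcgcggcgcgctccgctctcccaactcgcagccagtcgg
Gjb6 chr14:57133562-57133861: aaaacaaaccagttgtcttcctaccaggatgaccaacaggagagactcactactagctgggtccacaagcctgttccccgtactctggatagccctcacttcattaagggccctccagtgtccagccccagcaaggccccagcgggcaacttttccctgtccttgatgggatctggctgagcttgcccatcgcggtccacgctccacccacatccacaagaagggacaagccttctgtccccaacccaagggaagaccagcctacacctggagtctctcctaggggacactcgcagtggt
The Gjb2 promoter held 2 matches to CTTTG and 1 to GCCNNNGGC, with 70% G and C bases, and the matches do not overlap. The Wnt7a and Gjb6 promoters held neither motif, with 76% and 57.3% G and C bases. Of 27025 mouse promoters of the same length, 54% held CTTTG and 16.5% held GCCNNNGGC, and the median G and C content was 52.7%. In GENCODE M21 (GRCm38) the genes span chr6:91363981-91411363 (Wnt7a), chr14:57098600-57104702 (Gjb2) and chr14:57123303-57133611 (Gjb6).

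The first comparison asked which genes set dorsal cells apart from ventral cells, defined by the mirror rule (at least 1 En1 UMI, no Wnt7a, Fgf8 under 5 UMIs; 765 cells). Dorsal cells had more of the guidance ligand Sema3a, the neurotrophin receptor Ngfr, the growth-cone gene Gap43 and the WNT antagonists Sfrp1 and Notum. They had less of the BMP targets Bambi and Msx2, of Bmp4 itself, of the WNT receptor Fzd1 and of the homeobox genes Dlx1 and Dlx2. Counts were summed per class and library and tested with edgeR's quasi-likelihood test with the library as a block and Benjamini-Hochberg adjustment, in which 199 genes were higher (2.02% of 9836 tested) and 235 lower (2.39%; 4.41% in either direction) at an adjusted p under 0.05. The 3 libraries differ in stage or strain and stand in for replicates of the dorsal to ventral difference.

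Among signalling molecules of the dorsal face, Sema3a, a secreted repellent of growing axons, was at 134, 62.4 and 59.9 CPM in dorsal cells of B6_E10.5, 129_E9.5 and B6_E9.5, against 34.3, 13.6 and 14.1 CPM in ventral cells. The dorsal value was above the ventral one in each library, with a log2 fold change of 2.05 (SE 0.15, edgeR adjusted p = 5.25e-09). Ngfr, the p75 receptor of neurotrophins, was at 13.5, 85.8 and 111 CPM in dorsal cells, against 5.32, 2.71 and 1.31 CPM in ventral cells (log2 fold change 4.73, SE 0.40, edgeR adjusted p = 5.30e-08). Its gap was wide in both E9.5 libraries and narrow in B6_E10.5. Ppp2r2c, a regulatory subunit of protein phosphatase 2A, was at 4.49, 20.3 and 58.1 CPM in dorsal cells, against 0, 2.71 and 1.31 CPM in ventral cells, and the dorsal value of B6_E10.5 rested on 4 UMIs. These genes were named as markers with the results of these libraries known, so their calls are not independent support for the label.

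Some axon-related genes beside these markers passed the test. Of 24 neurotrophin and neurite genes listed, 12 passed the filter on low counts, 5 were higher (among them Ngfr, Gap43, Tril and Basp1) and 0 were lower by edgeR or DESeq2 (1 at an unadjusted p under 0.05). The median log2 fold change of the 12, Ngfr included, was 0.38, against 0.0070 over all genes tested. Gap43 was at 40.4, 90.3 and 38.7 CPM in dorsal cells of B6_E10.5, 129_E9.5 and B6_E9.5, against 8.86, 12.9 and 12.8 CPM in ventral cells (log2 fold change 2.13, SE 0.22, edgeR adjusted p = 9.42e-07). Of 47 guidance ligands and receptors 35 were tested, and the ligands Sema3a, Sema3c, Sema3f, Efnb1 and Efnb2 were higher and the receptors Unc5b, Unc5c and Ephb3 lower, with a median of 0.01. Sema3c, a class 3 semaphorin, was at 65.1, 24.1 and 58.1 CPM in dorsal cells, against 50.8, 9.5 and 14.1 CPM in ventral cells (log2 fold change 1.21, SE 0.22, edgeR adjusted p = 0.00161).

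The WNT genes split between ligands, receptors and antagonists. Of 11 WNT ligand and secretion genes tested, Wnt7a was higher by the rule, and Wnt5a, Wnt6 and the WNT carrier Wls were lower in edgeR, while DESeq2 called none of these 3 (adjusted p = 0.457, 0.857 and 0.352). Wnt5a, a ligand of the non-canonical branch, was at 86.5, 70.0 and 63.9 CPM in dorsal cells of B6_E10.5, 129_E9.5 and B6_E9.5, against 119, 137 and 155 CPM in ventral cells (log2 fold change -0.99, SE 0.18, edgeR adjusted p = 0.00162). Wnt6, the general surface ectoderm ligand, was lower in dorsal cells of both E9.5 libraries and not in B6_E10.5, at 531, 542 and 648 CPM against 459, 867 and 972 CPM (log2 fold change -0.38, SE 0.10, adjusted p = 0.0344). Fzd1, a frizzled receptor, showed the widest gap of the receptors, with 22.5, 17.3 and 28.8 CPM in dorsal cells and 77.4, 93.6 and 204 CPM in ventral cells (log2 fold change -2.54, SE 0.16, edgeR adjusted p = 6.62e-10). Of 18 genes of WNT response and antagonism, Sfrp1, Notum and Kremen2 were higher, Dkk1 was lower, and the median was -0.00049. Sfrp1, a secreted frizzled-related inhibitor, was at 55.0, 76.7 and 32.4 CPM in dorsal cells, against 26.0, 25.1 and 10.1 CPM in ventral cells (log2 fold change 1.46, SE 0.17, edgeR adjusted p = 5.09e-06). Notum, an enzyme that inactivates WNT proteins, was at 15.7, 13.5 and 25.2 CPM against 4.72, 2.71 and 6.87 CPM in ventral cells. Dkk1, a WNT co-receptor blocker, was at 0, 0 and 2.25 CPM in dorsal cells, against 2.95, 17.6 and 42.2 CPM in ventral cells. The response genes Axin2, Lef1, Tcf7 and Nkd1 did not pass the test.

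BMP genes were lower in dorsal cells wherever they passed the test. Of 31 listed, 22 were tested, 0 were higher by edgeR or DESeq2 (2 at an unadjusted p under 0.05) and 8 were lower (Bambi, Bmp4, Gata3, Id1, Id3, Id4, Msx2 and Smad7), with a median log2 fold change of -0.16. Over all genes tested 2.02% were higher and 2.39% lower, with a median of 0.0070. The calls of Id1, Id4 and Smad7 were lost in DESeq2. Bambi, a pseudoreceptor that dampens BMP signalling, was at 31.4, 63.2 and 146 CPM in dorsal cells of B6_E10.5, 129_E9.5 and B6_E9.5, against 61.4, 276 and 652 CPM in ventral cells (log2 fold change -2.03, SE 0.14, edgeR adjusted p = 1.32e-09). Msx2, a BMP-induced homeobox gene, was at 61.8, 40.6 and 106 CPM, against 130, 187 and 406 CPM in ventral cells (log2 fold change -1.83, SE 0.14, edgeR adjusted p = 6.97e-09). The ligand gene Bmp4 was at 20.2, 24.1 and 12.6 CPM in dorsal cells, against 28.4, 97.7 and 77.5 CPM in ventral cells (log2 fold change -2.02, SE 0.22, edgeR adjusted p = 3.22e-06). In B6_E10.5 the Bmp4 levels lay close together and in both E9.5 libraries they lay far apart. The ligands Bmp2 and Bmp7 did not pass, with log2 fold changes of 0.37 (SE 0.31) and 0.27 (SE 0.12).

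Some genes of the apical ridge list were also lower in dorsal cells. Of 20 listed, 17 were tested, 0 were higher by edgeR or DESeq2 (3 at an unadjusted p under 0.05) and 8 were lower (Cd44, Dlx1, Dlx2, Dlx5, Msx2, Rspo2, Wnt5a and Wnt6), with a median of -0.38. Among all genes tested 2.02% were higher and 2.39% lower. Dlx1 was at 25.8, 13.5 and 8.11 CPM in dorsal cells of B6_E10.5, 129_E9.5 and B6_E9.5, against 65.0, 89.6 and 75.6 CPM in ventral cells (log2 fold change -2.52, SE 0.24, edgeR adjusted p = 2.91e-07). Rspo2, which amplifies WNT signals, was at 0, 0.752 and 0 CPM in dorsal cells, against 3.54, 22.4 and 6.87 CPM in ventral cells. Fgf8, under 5 UMIs in both classes by the rule, was at 10.1, 49.6 and 40.5 CPM against 14.2, 57.7 and 39.3 CPM. Sp8, a ridge and ectoderm zinc-finger factor, did not pass (log2 fold change -0.37, SE 0.12, adjusted p = 0.0741), and neither did Lmx1b, the mesenchymal target of WNT7A (0.48, SE 0.38, adjusted p = 0.58), at 10.1, 3.01 and 10.8 CPM in dorsal cells.

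**Figure D2:**
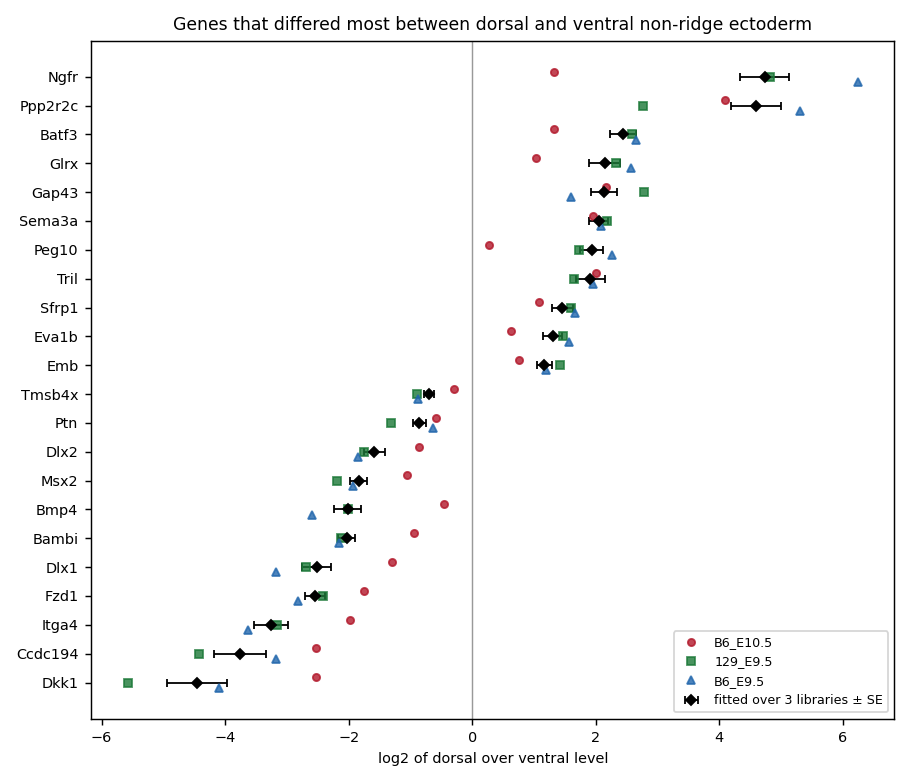
Log2 of the dorsal over the ventral level (horizontal axis) for the genes of smallest adjusted p in each direction, without Wnt7a and En1; coloured points are the 3 libraries, with 0.5 UMIs added to each sum, and black diamonds the edgeR fit with its standard error. The E9.5 libraries mostly lie close together, while B6_E10.5 is the library nearest to 0 for each gene drawn except Ppp2r2c, Gap43 and Tril.

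Epidermal genes moved in both directions. Of 26 keratins and epidermal factors tested, 5 were higher (Krt7, Krt14, Krt17, Tfap2a and Tfap2b) and 4 lower (Gata3, Klf4, Klf5 and Perp), with a median of -0.11. The shares over all genes tested were 2.02% higher and 2.39% lower. Krt14, the basal keratin, was at 177, 89.5 and 31.1 CPM in dorsal cells of B6_E10.5, 129_E9.5 and B6_E9.5, against 122, 34.6 and 15.4 CPM in ventral cells (log2 fold change 0.90, SE 0.16, edgeR adjusted p = 0.000972). Krt7, a simple-epithelium keratin, was at 117, 181 and 108 CPM against 94.5, 48.2 and 32.7 CPM (log2 fold change 1.30, SE 0.18, edgeR adjusted p = 6.42e-05). Of 6 connexins tested, which form gap junction channels, Gjb2 and Gjb6 were higher and Gja1 was lower, with a median of -0.04. Gjb2 was at 188, 31.6 and 3.15 CPM in dorsal cells, against 67.3, 2.04 and 0.327 CPM in ventral cells (log2 fold change 1.80, SE 0.23, edgeR adjusted p = 2.16e-05). Gja1 was at 167, 186 and 277 CPM, against 193, 301 and 444 CPM (log2 fold change -0.57, SE 0.12, edgeR adjusted p = 0.00385). Of 24 basement membrane and matrix genes the collagen gene Col18a1 was higher, 5 were lower (Col1a1, Col1a2, Frem2, Itga4 and Itga6) and the median was 0.03. Itga4, an integrin subunit that binds fibronectin, was at 6.74, 8.27 and 4.50 CPM in dorsal cells, against 28.4, 77.4 and 58.2 CPM in ventral cells (log2 fold change -3.26, SE 0.27, edgeR adjusted p = 5.30e-08).

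Metal-binding and imprinted genes were among the remaining differences. Of 13 metallothionein and redox genes, Mt1, Mt2 and Glrx were higher and Gpx4 lower, with a median of 0.07. Mt1 was at 232, 107 and 134 CPM in dorsal cells of B6_E10.5, 129_E9.5 and B6_E9.5, against 141, 41.4 and 29.8 CPM in ventral cells (log2 fold change 1.35, SE 0.17, edgeR adjusted p = 1.50e-05). Of 19 oncofetal and imprinted genes, Dlk1 and Peg10 were higher and Cdkn1c, Peg3, Phlda2 and Zim1 lower, with a median of -0.07. Beside these lists, 2.02% of all genes tested were higher and 2.39% lower. Cdkn1c, an imprinted inhibitor of the cell cycle, was at 379.5, 264 and 133 CPM in dorsal cells, against 379.2, 1221 and 826 CPM in ventral cells (log2 fold change -1.70, SE 0.26, edgeR adjusted p = 0.000163). Its dorsal and ventral levels were equal within counting error in B6_E10.5 and far apart in both E9.5 libraries. Batf3, a basic leucine zipper factor, was at 18, 50.4 and 93.2 CPM in dorsal cells, against 7.09, 8.14 and 14.7 CPM in ventral cells (log2 fold change 2.44, SE 0.21, edgeR adjusted p = 8.21e-08). Of 21 S phase genes 1 was higher (Slbp), and of 22 G2 and M phase genes 0 passed in either direction by edgeR or DESeq2 (3 were higher and 0 lower at an unadjusted p under 0.05). Hoxc4 was higher and Hoxc8 and Hoxc9 lower.

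**Figure D3:**
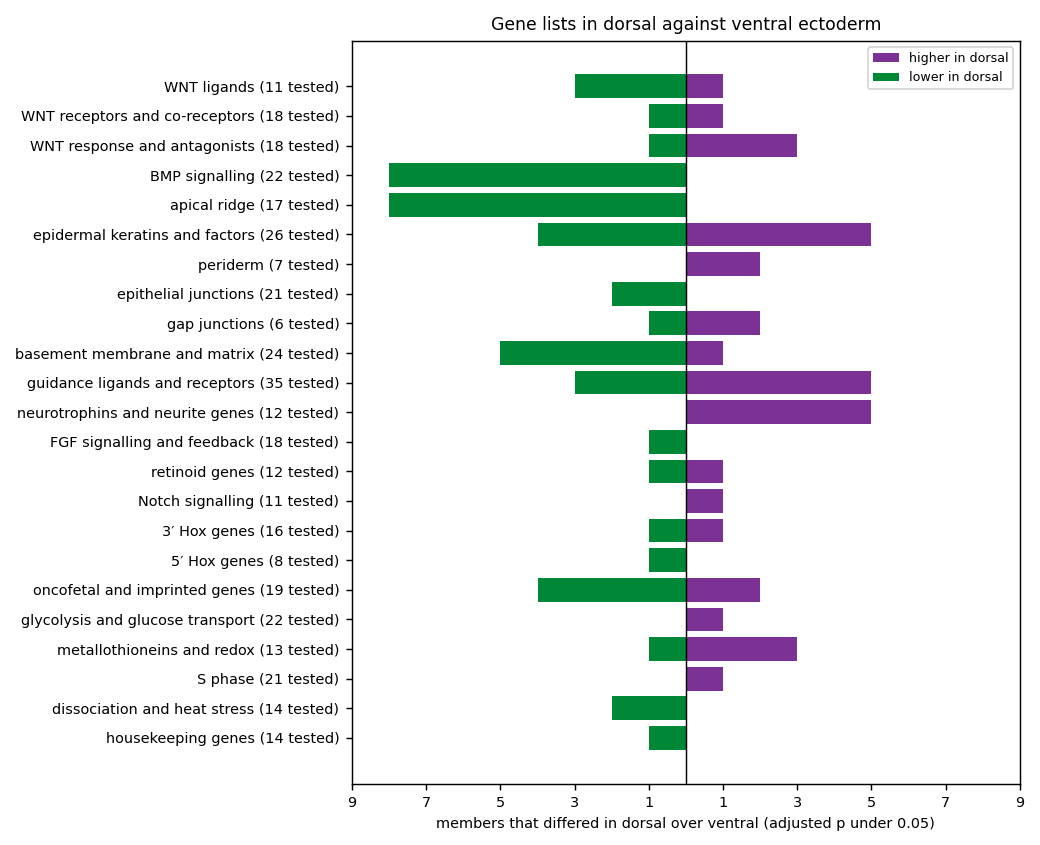
Number of genes of each list that were higher (purple, to the right) or lower (green, to the left) in dorsal than in ventral cells at an edgeR adjusted p under 0.05, with the number tested beside each list name. The dorsal marker and dorsoventral lists and lists with no such gene are not drawn, the 1 higher WNT ligand is Wnt7a, and the BMP and apical ridge lists had 8 lower members and 0 higher.

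The dorsal to ventral difference was carried more firmly by some libraries than by others. Without B6_E10.5 the same fit called 494 genes higher and 546 lower, without B6_E9.5 44 and 48, and without 129_E9.5 30 and 48. Genes called in the other two libraries were then read in the one left out, where each had at least 10 UMIs. Of those called higher and lower from both E9.5 libraries, 309 of 482 (64.1%) and 285 of 507 (56.2%) kept their direction in B6_E10.5, where all tested genes split at 50.1% and 49.9%. Genes called without 129_E9.5 kept their direction there in 27 of 27 and 47 of 47 cases, and those called without B6_E9.5 in 34 of 40 and 47 of 47. Of the 64 genes named for this comparison that passed, 62 kept their call without B6_E10.5, 38 without B6_E9.5, 33 without 129_E9.5, 44 in DESeq2 and 29 with cells thinned to 2000 UMIs, where 20 lost it and 15 were too low to be tested. Sema3a, Ngfr, Gap43, Sfrp1, Fzd1, Bambi, Msx2, Itga4, Dlx1, Bmp4, Gjb2 and Mt1 kept it in each of these. Without B6_E9.5, and likewise without 129_E9.5, the calls of Wnt5a, Wnt6, Gja1, Sema3c, Unc5b, Unc5c and Col18a1 were lost, and without 129_E9.5 those of Krt7, Krt14 and Cdkn1c too. Gjb6 lost its call without 129_E9.5 and was too low to be tested without B6_E10.5. Notum lost its call without B6_E9.5. The calls of Wnt5a, Wnt6, Wls, Gjb6, Krt17, Cdkn1c, Hoxc4, Mt2, Gpx4 and Slbp were lost in DESeq2. Batf3, Krt14, Sema3c, Glrx, Kremen2, Unc5b, Unc5c, Col18a1 and Mt2 lost theirs after thinning, and Ppp2r2c, Notum, Dkk1 and Rspo2 could not be tested there. By list, DESeq2 called 5 BMP genes and 5 apical ridge genes lower, 3 neurite genes higher, 2 guidance genes higher and 2 lower, and 2 epidermal genes higher and 1 lower. DESeq2 called 54 genes higher and 68 lower in all, and a fit without the library as a replicate block called 1 and 1.

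Dorsal cells were next set against unmarked cells, which had no Wnt7a and no En1 UMI and under 5 of Fgf8 (1205 cells). These are shallower, with medians of 7882, 6449 and 11888 UMIs in dorsal cells against 4335, 3697 and 4060 in unmarked cells of B6_E10.5, 129_E9.5 and B6_E9.5, so they can hold dorsal and ventral cells whose marker was not counted. In edgeR 78 genes were higher (0.793% of 9836) and 122 lower (1.24%), or 2.03% in either direction. Bhlha9, a limb ectoderm helix-loop-helix gene, was at 378, 457 and 362 CPM in dorsal cells, against 217, 246 and 162 CPM in unmarked cells (log2 fold change 0.97, SE 0.14, edgeR adjusted p = 0.000379; DESeq2 adjusted p = 0.0573). Igfbp3, an insulin-like growth factor binding protein, was at 33.7, 38.4 and 63.9 CPM, against 15.1, 15.7 and 13.1 CPM (log2 fold change 1.68, SE 0.27). Bambi, Bmp4 and Msx2 were lower in dorsal than in unmarked cells too, by log2 fold changes of -1.68, -2.07 and -1.28. Sfrp1, Notum and Kremen2, which were higher over ventral cells, did not pass over unmarked cells. Sema3a was higher by 0.52 (SE 0.13, edgeR adjusted p = 0.0302; DESeq2 adjusted p = 0.339), while Krt14 and Gjb2 did not pass, with 0.03 (SE 0.15) and -0.11 (SE 0.19). Of 22 G2 and M phase genes, Birc5, Ccnb1, Cdk1 and Mki67 were higher and 0 lower by edgeR, DESeq2 or at an unadjusted p under 0.05 (median 0.39, against 0.00049 over all genes), and the part of the difference in depth in this was not tested. DESeq2 called 1 of these 4 cycle genes, and 6 genes higher and 11 lower in all; it gave no adjusted p for Ngfr, Ppp2r2c and Igfbp3. Without B6_E10.5 the counts were 200 and 311, without B6_E9.5 12 and 24, and without 129_E9.5 1 and 5.

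Against the apical ridge (Fgf8 at 5 UMIs or more, 807 cells), 857 genes were higher in dorsal cells (8.56% of 10014) and 941 lower (9.4%), or 18% in either direction. Tfap2b, an epidermal AP-2 factor, was at 292, 59.4 and 28.8 CPM in dorsal cells of B6_E10.5, 129_E9.5 and B6_E9.5, against 13.9, 1.18 and 2.39 CPM in ridge cells (log2 fold change 4.28, SE 0.21, edgeR adjusted p = 3.56e-09). Gas1, a hedgehog co-receptor gene, was at 265, 220.4 and 241 CPM, against 71.8, 42.5 and 55.5 CPM (log2 fold change 2.07, SE 0.11). Bhlha9, a member of the ridge list, went the other way to most of that list, with 378, 457 and 362 CPM in dorsal cells and 39.4, 37.8 and 63.0 CPM in ridge cells (log2 fold change 2.91, SE 0.25). Of 26 keratins and epidermal factors 10 were higher, among them Krt7, Krt8, Krt14 and Krt18, and 6 were lower (median -0.06). WNT response genes were mostly lower, 13 of 20 with Axin2, Lef1, Tcf7 and Nkd1 among them and 2 higher (median -1.29, against 0.0037 over all genes). Of 21 S phase genes 7 were higher, Pcna and Uhrf1 among them, and 0 were lower by edgeR, DESeq2 or at an unadjusted p under 0.05 (median 0.33). Of 12 neurotrophin and neurite genes 6 were higher (Artn, Basp1, Gap43, Ngfr, Nrtn and Ntf5) and 0 lower by edgeR, DESeq2 or at an unadjusted p under 0.05 (median 0.97). Without 129_E9.5 the counts were 145 and 237, and without B6_E9.5 475 and 613.

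The stage comparison set dorsal cells of B6_E10.5 against those of B6_E9.5, with 1 library each and so no test. The connexin genes Gjb2 and Gjb6, the epidermal genes Bcl11a, Bcl11b, Tfap2b, Krt5 and Krt14 and the WNT ligands Wnt7b and Wnt4 were at least 2-fold higher at E10.5, and Ngfr, Ppp2r2c, Peg10, Lin28a, Crabp2 and Hoxc5 at least 2-fold lower. The connexin Gja1, at 167 CPM against 277 CPM, and Krt7, at 117 CPM against 108 CPM, did not reach 2-fold. Genes were counted by size, as a ratio of CPM of at least 2 among the 3448 genes whose higher library reached 50 CPM and 20 UMIs: 106 were higher (3.07%) and 88 lower (2.55%; 5.63% in either direction), with a median log2 ratio of -0.06 over all of them. A gene needs the floors only in its higher library, so a gene low in one library enters through the other. Counts and medians by list below describe the genes that entered and are no support for a trend. Stage cannot be told apart here from the reaction, the depth per cell or the level of Y-linked genes.

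Gjb2 was at 188 CPM in B6_E10.5 and 3.15 CPM in B6_E9.5, a ratio of 59.5 (95% interval 28.2 to 150.3), and at 31.6 CPM in 129_E9.5. Gjb6 had 52 UMIs in B6_E10.5 and 0 in B6_E9.5, at least 43.2-fold higher against a floor of 3 UMIs in the library. The chemokine gene Cxcl14 was at 768 CPM against 17.6 CPM (ratio 43.7, 31.7 to 62.0), and Lgals7, an epithelial galectin, at 119 CPM against 4.95 CPM (24.0, 12.9 to 49.6). The zinc-finger factors Bcl11a and Bcl11b had ratios of 13.4 (6.96 to 28.2) and 8.36 (6.03 to 11.8), Tfap2b 10.1 (7.68 to 13.5), Anxa2 10.7 (8.07 to 14.4) and the small heat-shock gene Hspb1 7 (5.76 to 8.55). Further large ratios were those of Upk3bl (16.0), Parm1 (12.0) and Scube1 (9.62). After thinning to 2000 UMIs, which left 38 dorsal cells in B6_E10.5 and 82 in B6_E9.5, Gjb2, Gjb6, Lgals7, Upk3bl and Parm1 were at 0 UMIs in B6_E9.5, so their ratios are lower bounds: at least 12.2-fold higher for Gjb2, 4.32 for Gjb6, 5.75 for Lgals7, and 3.60 for Upk3bl and Parm1. The thinned ratio of Scube1 was 5.39 and that of Bcl11a 8.63, on few UMIs, while Bcl11b was at 19.4 and Krt14 at 13.7. Krt14 was at 177 CPM in B6_E10.5 and 31.1 CPM in B6_E9.5 (5.71, 4.28 to 7.69). Of 13 keratins and epidermal factors past the floors, Krt5, Krt14, Tfap2b, Sfn, Bcl11a and Bcl11b were at least 2-fold higher and 0 were lower. Their median log2 ratio was 0.51, and over all genes past the floors 3.07% were higher and 2.55% lower. Krt5, Krt14 and Tfap2b, at 18.5, 31.1 and 28.8 CPM in B6_E9.5, entered only through B6_E10.5. So did Bcl11a and Bcl11b, and this count is no support for a trend. Sfn (2.42) stood at 1.34 after thinning.

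The dorsal markers did not move together. Wnt7a, used by the rule, was at 207 CPM in B6_E10.5 and 218 CPM in B6_E9.5. Sema3a was at 134 CPM against 59.9 CPM (ratio 2.23, 1.73 to 2.88), and at 62.4 CPM in 129_E9.5. Ngfr was at 13.5 CPM in B6_E10.5 and 111 CPM in B6_E9.5, which is 8.25-fold lower (4.64 to 16.2). The share of dorsal cells with an Ngfr UMI was 8.85% against 61.6%. It was 1.79% against 20.6% when members chosen at full depth were thinned. Ppp2r2c was at 4.49 CPM against 58.1 CPM, 12.9-fold lower (4.93 to 48.2), resting on 4 UMIs in B6_E10.5. Of the E9.5 libraries 129_E9.5 lay between for both, at 85.8 CPM of Ngfr and 20.3 CPM of Ppp2r2c. Batf3 was 5.19-fold lower and Peg10, at 16.8 CPM against 240.0 CPM, 14.2-fold lower. With cells thinned to 2000 UMIs before the rule, the ratio was 3.45 for Sema3a (0.996 to 13.4) and 0.108 for Ngfr. Ppp2r2c and Batf3 then had 0 UMIs in B6_E10.5 and 8 and 6 in B6_E9.5, which allows ratios of up to 0.809 and 1.08, so neither was shown to be 2-fold lower at that depth.

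Of 7 WNT ligand and secretion genes past the floors, Wnt7b (ratio 5.54, 4.09 to 7.58), Wnt4 (4.25, 3.09 to 5.88) and Wnt3 (2.75, 1.95 to 3.89) were at least 2-fold higher and 0 lower. Their median log2 ratio was 0.44, and over all genes 3.07% were higher and 2.55% lower. Wnt7b, Wnt4 and Wnt3, the last at 30.2 CPM in B6_E9.5, entered only through B6_E10.5, so this count is no support for a trend. Wnt6, at 531 CPM against 648 CPM, and Wnt7a did not reach 2-fold. Wnt3 was as high in 129_E9.5, at 94.0 CPM, as in B6_E10.5, at 83.1 CPM. Among WNT response genes, the transcription factor Tcf7l2 (3.36) and the DKK receptor Kremen2 (2.41) were higher and Lef1 (0.478) and Tcf7 (0.279) lower. Of 10 BMP genes, Bambi (0.215), Msx1 (0.311) and Id2 (0.480) were at least 2-fold lower and 0 higher (median -0.63). Of 4 retinoid genes past the floors 3 were lower, among them the retinoic acid binding protein gene Crabp2 (0.210) and the retinoic acid hydroxylase gene Cyp26b1 (0.189). Of 4 3′ Hox genes past the floors Hoxc5 (0.233), Hoxc4 (0.362) and Hoxb2 (0.366) were lower; after thinning Hoxc5 was at 0.240, Hoxc4 at 0.589 and Hoxb2 at 0 UMIs in B6_E10.5 (at most 0.719). Of 14 oncofetal and imprinted genes 5 were lower, Lin28a (0.140), which blocks let-7 maturation, and Hmga1 (0.151), Dlk1 (0.0941), Lin28b and Peg10, and Cdkn1c was higher at 379.5 CPM against 133 CPM (2.85, 2.43 to 3.34; 1.86 after thinning). Dlk1 was at 0 UMIs in B6_E10.5 and 5 in B6_E9.5 after thinning, which allows a ratio of up to 1.29. The glycolytic gene Eno1 was at 386 CPM against 1050.1 CPM (0.368) and Ldhb at 177 CPM against 41.0 CPM (4.33). The histone genes Hist1h2ap (0.0348) and Hist1h2ae (0.102), Prtg (0.0798) and the embryonic globin gene Hbb-bh1 (0.156) were the others of the smallest ratios, the last beside the erythroid marker sums given above. After thinning both histone genes were at 0 UMIs in B6_E10.5, which allows ratios of up to 0.462 for Hist1h2ap and 0.809 for Hist1h2ae.

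**Figure D4:**
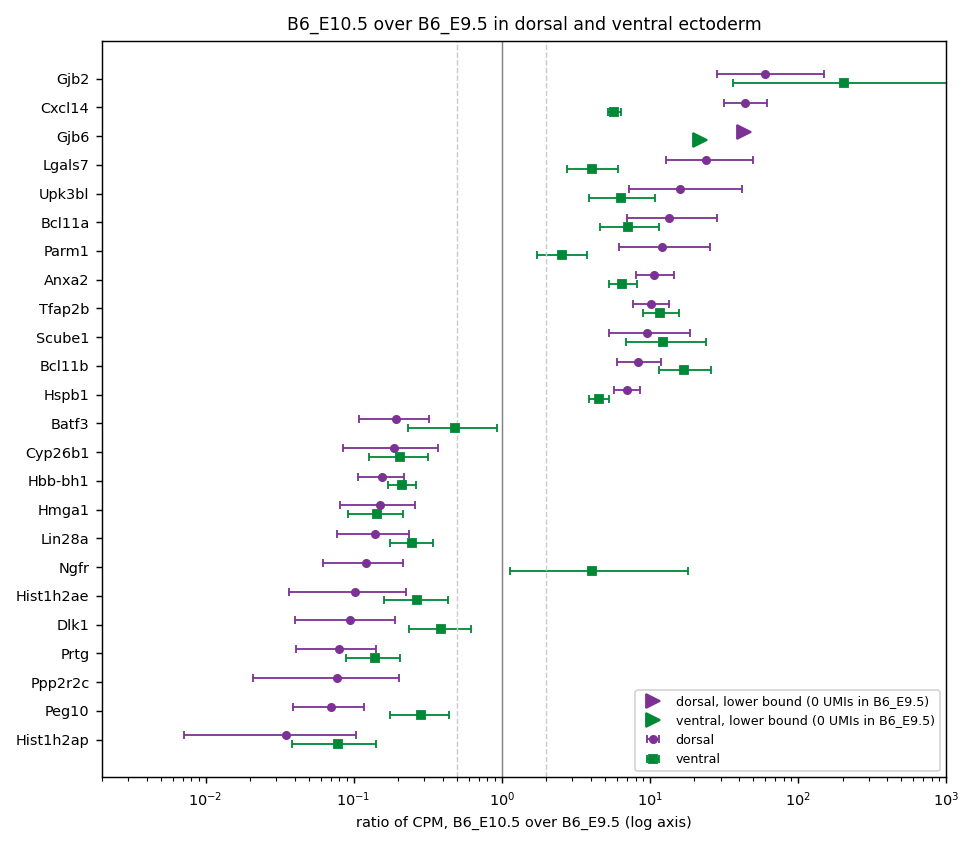
Ratio of CPM in B6_E10.5 over B6_E9.5 (horizontal log axis) for the 12 largest and 12 smallest ratios in dorsal cells, with the ratio of the same gene in ventral cells; bars are 95% counting intervals, triangles lower bounds, and dashed lines mark 2-fold. Ventral Ppp2r2c is not drawn because it had 0 UMIs in B6_E10.5, and Ngfr lies on opposite sides of 1.

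The same genes in ventral cells give a measure of what was shared, although no difference between the classes was tested. Gjb2, Bcl11b, Tfap2b and Krt14 had ventral ratios of 206, 17.1, 11.8 and 7.95, and Hmga1, Cyp26b1 and Prtg 0.144, 0.206 and 0.138. Cxcl14 differed in level, at 892 CPM against 155 CPM in ventral cells (ratio 5.75, 5.18 to 6.39). Ngfr had 9 against 4 UMIs in ventral cells (4.06, 1.13 to 18.1), and Cdkn1c 379.2 CPM against 826 CPM (0.459, 0.420 to 0.501). In ridge cells the ratios were 1.17 for Krt14, 1.69 for Cxcl14 and 5.81 for Tfap2b.

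The strain comparison set dorsal cells of 129_E9.5 against those of B6_E9.5, and it shares the B6_E9.5 library with the stage comparison. Krt5, Krt14, Krt18, Cxcl14 and Wnt3 were at least 2-fold higher in 129_E9.5, and Bambi, Msx1, Msx2, Lin28a, Hmga1 and Spry2 at least 2-fold lower. Of 3444 genes past the floors 77 were at least 2-fold higher (2.24%) and 128 lower (3.72%; 5.95% in either direction), with a median log2 ratio of 0.04. The floors again apply to the higher library only, so counts by list describe the genes that entered and are no support for a trend. There is no test, and strain cannot be told apart from the reaction, the depth per cell or the level of Y-linked genes.

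The largest ratios were those of Eif3j2 (32.1, 13.3 to 101), Cxcl14 (9.81, 6.96 to 14.2), Hddc3 (9.33, 5.00 to 18.9), Gpx6 (6.44, 4.22 to 10.1) and Hspb1 (4.67, 3.84 to 5.70). Eif3j2 and Eif3j1, which had a ratio of 0.159, are near-identical copies. How reads were divided between them was not tested, and both ratios are uncertain. The glyoxalase gene Glo1 was at 655 CPM in 129_E9.5 and 141 CPM in B6_E9.5 (4.63, 4.07 to 5.29), and its ratio was 4.30 in ventral cells and 4.33 in mesenchyme. Slc1a3 (4.37), Pttg1 (4.15), Krt5 (4.07), Rnf121 (3.98), Laptm4b (3.66) and Cbr2 (3.52) followed. Rpgrip1 was at 4.51 CPM against 277 CPM, 61.4-fold lower (28.0 to 168), with ratios of 0.0121 in ventral cells and 0.00186 in mesenchyme. Hist1h4i (0.0555), Hmga1 (0.130), Nup98 (0.151), Kmt2d (0.167), the FGF feedback inhibitor Spry2 (0.174), Ccdc85c (0.181), Hbb-bh1 (0.182), Rpa3 (0.193), Lamtor3 (0.199) and Hist1h2ae (0.205) were the others at the low end. The ratios of these genes lay on the same side of 1 in ventral cells.

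By list, some of the epidermal, BMP and oncofetal genes past the floors differed at least 2-fold between 129_E9.5 and B6_E9.5. Of 12 keratins and epidermal factors past the floors, Krt5, Krt14 (ratio 2.88, 2.12 to 3.93), Krt18 (2.02), Tfap2b (2.06) and Bcl11b were at least 2-fold higher. Trp63 (0.482), the master factor of stratified epithelium, was lower, and the median log2 ratio was 0.72. Over all genes 2.24% were higher and 3.72% lower. Krt5, Krt14 and Tfap2b, at 18.5, 31.1 and 28.8 CPM in B6_E9.5, entered only through 129_E9.5, as did Bcl11b. Of 10 BMP genes, Bambi (0.433), Msx1 (0.362) and Msx2 (0.382) were lower and 0 higher (median -0.49). Among oncofetal and imprinted genes 6 of 15 were lower, Lin28a at 27.1 CPM against 120.2 CPM (0.225) and Peg10 at 75.2 CPM against 240.0 CPM (0.313) among them, and 0 higher (median -0.35). WNT genes gave Wnt3 (3.12, 2.30 to 4.26) and Sfrp1 (2.37) higher and Tcf7 (0.476) and Znrf3 (0.283) lower. Of the dorsal markers, Wnt7a had a ratio of 1.32 (1.15 to 1.51), Sema3a 1.04 (0.783 to 1.38; 2.71 after thinning, 0.959 to 9.38), Ngfr 0.771 (0.612 to 0.966) and Ppp2r2c 0.350 (0.222 to 0.533). Gjb2 had 42 UMIs in 129_E9.5 and 7 in B6_E9.5 (10.0, 4.46 to 26.4), below the floors, and 4 against 0 UMIs after thinning (at least 1.06-fold higher). The thinned ratios of Cbr2 (1.59), Tfap2b (1.59) and Tcf7 (0.647) were closer to 1, and those of Eif3j2 and Rnf121 were 10.3 and 15.1. Hddc3 had 0 UMIs in B6_E9.5 after thinning, so its thinned ratio is a lower bound (at least 2.65).

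**Figure D5:**
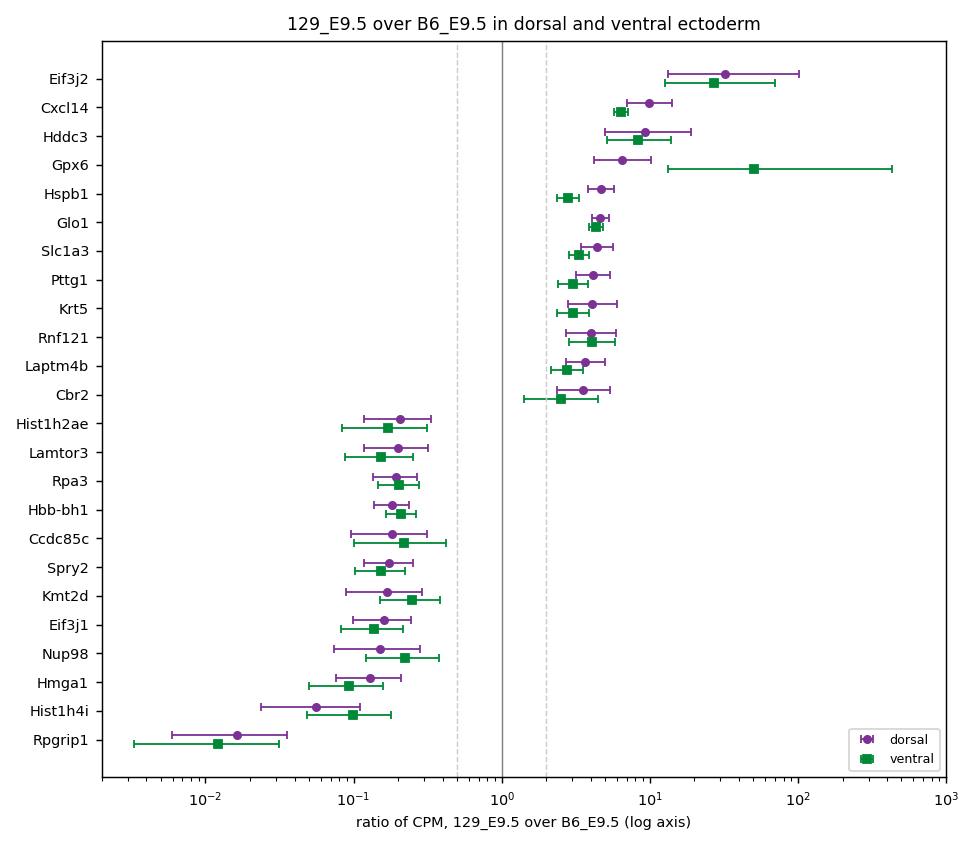
Ratio of CPM in 129_E9.5 over B6_E9.5 (horizontal log axis) for the 12 largest and 12 smallest ratios in dorsal cells, with the ratio of the same gene in ventral cells; bars are 95% counting intervals and dashed lines mark 2-fold. Dorsal and ventral points of a gene lie on the same side of 1 for each gene drawn.

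Set side by side, several genes had dorsal levels in B6_E10.5 and 129_E9.5 on the same side of B6_E9.5, which both comparisons share. Krt14 stood at 177, 89.5 and 31.1 CPM in B6_E10.5, 129_E9.5 and B6_E9.5, Cxcl14 at 768, 172 and 17.6 CPM, and Hspb1 at 441, 294 and 63.0 CPM. Hmga1 stood at 15.7, 13.5 and 104 CPM, Lin28a at 16.8, 27.1 and 120.2 CPM, and Bambi at 31.4, 63.2 and 146 CPM. As sequenced, Sema3a and Ngfr levels of 129_E9.5 lay closer to B6_E9.5 than to B6_E10.5; after thinning this held for Ngfr, while the Sema3a ratios over B6_E9.5 were 3.45 for B6_E10.5 and 2.71 for 129_E9.5, on 8, 17 and 5 UMIs in B6_E10.5, 129_E9.5 and B6_E9.5.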

How the data were processed

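Single-cell UMI counts (counts of distinct captured molecules per gene and cell) of 3 forelimb bud libraries were used as the authors deposited them, with their table of libraries and clusters for each barcode. Cell Ranger 3 and the build mm10 are named in the submitters' processing notes, and the labels name no other filter. The table held 15122 genes, of which 15119 IDs matched GENCODE M21 without their version (14775 with it).

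Cells were classed by UMIs of Wnt7a, En1 and Fgf8, and the members and gene lists were chosen with earlier results of these data known. No doublet caller was run, and 20 cells with both Wnt7a and En1 were not compared. Counts were summed per class and library and tested with edgeR 4.0.16 (quasi-likelihood, TMM, filterByExpr, class plus library, R 4.3.3), at a Benjamini-Hochberg adjusted p under 0.05, with SE taken as the log2 fold change over the root of F. The block is the library, since classes of 1 library come from the same reaction. The tests were checked on simulated counts. Stage and strain have 1 library a side, so they are given as ratios of CPM with exact conditional binomial 95% intervals (scipy 1.17.1) and no test. Thinning drew 2000 UMIs from each cell of at least that depth (numpy 2.4.6). The rule was then applied again for the thinned shares of the ectoderm, fits and ratios. Thinned shares of cells with a marker UMI kept the class given at full depth. Figures used matplotlib 3.10.9 and tables pandas 2.3.3.

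Named genes were the 12 of smallest adjusted p in each direction for dorsal over ventral and 5 for the other classes, the 12 largest and smallest ratios of stage and strain, up to 4 members of each list that passed, and 11 limb genes. A few genes beyond this rule (Cxcl14, Hspb1, Hmga1, Lin28a and Bambi side by side at the end) were set together after their values were seen. Alternatives were DESeq2 1.42.0, its size factors, other count filters, thinning, other class limits, other floors, leaving out a library, and, chosen after seeing the data, leaving out cells of at least 16000 UMIs or with a barcode found in another library. A few genes counted in the lists are not reported here by name.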

Additional observations from a re-analysis of the deposited data

Results flagged for a closer look

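A pair of genes had stage ratios on opposite sides of 1 in dorsal and ventral cells. Ngfr had a ratio of 0.121 (B6_E10.5 over B6_E9.5) in dorsal cells and 4.06 in ventral cells, where it rested on 9 and 4 UMIs. Cdkn1c had a ratio of 2.85 in dorsal cells and 0.459 in ventral cells. With 1 library per stage, the difference between the classes was not tested.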

How the results depend on the processing

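Each stage and strain is 1 library, so stage, strain and reaction cannot be told apart, and counting intervals leave out embryo differences. For dorsal over ventral cells, genes called higher and lower were 54 and 68 with DESeq2, 311 and 381 with no filter on low counts, 48 and 82 after thinning to 2000 UMIs, 91 and 145 with only the 2 classes fitted, and 1 and 1 with no replicate block; leaving out 1 library gave 30 to 494 and 48 to 546. Over unmarked cells they were 6 and 11 (DESeq2), 211 and 250 (no filter), 9 and 42 (thinned), 23 and 49 (Fgf8 at 0), 1 and 0 (no replicate block), 119 higher (only the 2 classes), and 1 to 200 and 5 to 311 without 1 library. Over ridge cells they were 412 and 549 (DESeq2), 196 and 272 (thinned), 78 and 177 (no replicate block), and 145 to 848 and 237 to 987 without 1 library. Stage counts of higher and lower genes were 43 and 38 with floors of 100 CPM, 268 and 224 with 20 CPM, 19 and 154 thinned, and 141 lower with Wnt7a at 2 UMIs or more. Strain counts were 32 and 66, 221 and 301 at the same floors, and 122 higher thinned. Dorsal shares were 4.17%, 8.90% and 9.24% in B6_E10.5, 129_E9.5 and B6_E9.5 thinned, and 14.0% and 12.9% in 129_E9.5 and B6_E9.5 with Fgf8 at 0. Signs turned for Spry1 over ventral (0.14 thinned), for Gjb2 over unmarked (0.30 DESeq2, 0.27 thinned, up to 0.43 without 1 library), Sp8 over unmarked (0.18 thinned), Krt14 over unmarked (-0.034 Fgf8 at 0, -0.16 no replicate block, -0.013 only the 2 classes, -0.24 to 0.39 without 1 library) and Lmx1b over ridge (-0.28 to 0.64 without 1 library). Other named log2 fold changes, and other named ratios of at least 2-fold past the floors, kept their direction where a setting gave a value. Thinning gave one for 51 of 67 genes named over ventral, 12 of 16 over unmarked and 14 of 16 over ridge cells, and the stage ratios of Dlk1 and Batf3 are bounds there (at most 1.29 and 1.08). Fewer UMIs, cells or genes enter the thinned, Fgf8 and floor settings, and for the rest the cause was not tested.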

Other observations

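Some energy, stress and Notch genes passed the test against the ridge, where 8.56% of all genes were higher and 9.4% lower. Of 22 glycolysis and glucose transport genes, 3 were higher in dorsal than in ridge cells (the transporters Slc16a1, Slc2a1 and Slc2a3) and 7 lower (Aldoa, Bnip3, Gpi1, Hk2, Ldha, Pgk1 and Slc16a3), with a median log2 fold change of -0.24. Of 14 dissociation and heat stress genes, Hsp90aa1 and Hsph1 were higher and Egr1, Fos, Hspa8, Ier2, Jun, Junb and Jund lower (median -0.55). Of 11 Notch genes, Hes1, Lfng and Nrarp were higher in dorsal cells (median 0.41). Between strains, the mitochondrial transcripts mt-Nd3 and mt-Nd4l were at least 2-fold lower in dorsal cells of 129_E9.5 than of B6_E9.5, among 11 past the floors with a median log2 ratio of -0.65.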
